A study of Mus musculus with 2 samples.

Results

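The genes described here are 35 genes of sugar breakdown and of the response to low oxygen, read in tumours of mice given an antibody against SIGLEC15, a cell-surface receptor that binds sialic acid. They are a list of names and no threshold on a measured value enters it: 16 encode steps of glycolysis and the transport of glucose and lactate, and 19 are targets or regulators of the hypoxia-inducible factor (HIF). All 35 had a row among the 18685 genes of the antibody library. Their UMIs (unique molecular identifiers, 1 per captured transcript) were summed over the cells of each of the 30 clusters that the authors deposited.

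The study grew Hep1-6, a mouse hepatoma line, as percutaneous grafts in wild-type male C57BL/6 mice aged 6 to 8 weeks on a normal diet. Mice received the SIGLEC15 antibody or IgG into the peritoneum, with 3 mice per group in the design text and 1 single-cell library per group. Both groups carried the same grafts, and all tumour cells came from 1 cultured line in hosts with an intact immune system. Tumours were digested with enzymes at 37 °C, and cells enriched on beads for the immune marker CD45 were mixed in equal parts with unsorted cells, so shares of cell types reflect that mixing. The antibody library held 5482 cells and 74168827 UMIs. Of these, 3213 cells in 11 clusters carried tumour names and 2022 cells in 15 clusters carried immune names. Tumour cells had a median of 20428 UMIs each, and immune cells a median of 2142. The libraries had 11 cell barcodes in common. For IgG, 105 genes had complete rows in the matrix analysed, none of them among the 35, so the results describe cell types within the antibody library and say nothing about the effect of treatment on these genes.

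Glycolysis splits glucose into pyruvate, which yields energy without oxygen when it is turned to lactate and exported. When oxygen is low, prolyl hydroxylases no longer mark HIF for destruction, and HIF then raises the transcription of glucose transporters, glycolytic enzymes, inhibitors of pyruvate oxidation, and receptors that clear mitochondria. Liver tumours and the neutrophils that enter them both rely heavily on glycolysis. HIF binds DNA at a short core that reads ACGTG or, in a variant form, begins with G in place of A (GCGTG).

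The promoters of 5 genes are shown because they hold this core in genes that the results turn on. Bnip3, Slc2a1, Egln3 and Ankrd37 were each highest in the same tumour cluster and in the same myeloid cluster among immune clusters. They were not confined to these clusters. Slc16a3 was nearly silent in tumour cells. Each is the 250 bases before the gene's start from RefSeq (GRCm38.p6), 5′ to 3′ on the gene's strand. Capitals mark both forms of the core wherever they lie on this strand or its complement, and neighbouring matches may overlap.
Bnip3, chr7:138909507-138909756, minus strand: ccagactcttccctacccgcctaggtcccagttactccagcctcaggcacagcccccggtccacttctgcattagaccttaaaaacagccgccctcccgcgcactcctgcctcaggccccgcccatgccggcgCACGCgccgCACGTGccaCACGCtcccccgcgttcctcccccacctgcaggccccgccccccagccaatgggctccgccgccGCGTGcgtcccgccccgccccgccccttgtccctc
Slc2a1, chr4:119108495-119108744, plus strand: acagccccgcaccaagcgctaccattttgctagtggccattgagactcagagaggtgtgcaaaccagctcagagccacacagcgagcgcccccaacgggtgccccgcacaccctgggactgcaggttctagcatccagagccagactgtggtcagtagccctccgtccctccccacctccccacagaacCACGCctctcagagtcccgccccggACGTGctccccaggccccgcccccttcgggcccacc
Egln3, chr12:54203875-54204124, minus strand: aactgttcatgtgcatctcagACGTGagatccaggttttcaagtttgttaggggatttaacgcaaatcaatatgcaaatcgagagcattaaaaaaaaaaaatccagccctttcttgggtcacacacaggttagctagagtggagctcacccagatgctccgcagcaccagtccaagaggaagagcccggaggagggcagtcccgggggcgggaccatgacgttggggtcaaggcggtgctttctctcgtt
Ankrd37, chr8:45999851-46000100, minus strand: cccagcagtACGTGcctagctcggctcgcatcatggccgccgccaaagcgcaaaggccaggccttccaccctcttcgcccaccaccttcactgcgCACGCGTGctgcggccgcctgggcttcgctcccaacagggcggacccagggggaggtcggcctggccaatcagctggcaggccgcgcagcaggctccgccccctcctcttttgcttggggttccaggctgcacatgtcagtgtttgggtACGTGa
Slc16a3, chr11:120948817-120949066, plus strand: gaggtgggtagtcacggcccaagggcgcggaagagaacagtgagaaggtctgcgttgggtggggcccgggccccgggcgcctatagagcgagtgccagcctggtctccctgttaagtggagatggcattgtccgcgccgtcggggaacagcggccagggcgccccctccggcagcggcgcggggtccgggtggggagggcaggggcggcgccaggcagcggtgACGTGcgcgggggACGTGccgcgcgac
RefSeq windows were matched for 31 of the 35 genes, and Bnip3l, Plod2, Bhlhe40 and Ndrg1 had no entry. Either core, on either strand, was in at least 1 window of 28 of the 31 genes (90.3%), against 41.5% of all genes with a window. Per window, ACGTG was in 46.7% of 45 windows of these genes, against 16.6% of all 32851 windows. GCGTG was in 51.1% of them, against 28.2%. Windows of glycolytic genes held either core in 76.9% of cases and windows of HIF targets in 73.7%. A match describes letters in a window and not a bound site.

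The first comparison set tumour cells against immune cells. Levels are CPM (UMIs per 1000000 UMIs of the same cells), a ratio is the tumour CPM over the immune CPM, and each has an exact 95% interval that covers counting error only. With 1 library there is no replicate, no p-value was computed, and a gene counts as different when its CPM differed by at least 2-fold among genes with at least 50 UMIs. The 35 genes as a set did not stand apart from other genes. Of the 34 with enough UMIs, 7 (20.6%) were at least 2-fold higher in tumour cells, where the same was true of 20.2% of all 12470 genes. Another 4 (11.8%) were at least 2-fold lower, against 25.1% of all genes. Their median ratio was 1.23, against 0.931 over all genes, a shift of -0.10 on the log2 scale. Single genes, such as those for lactate export and for phosphofructokinase, differed far more than the median.

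**Figure D1:**
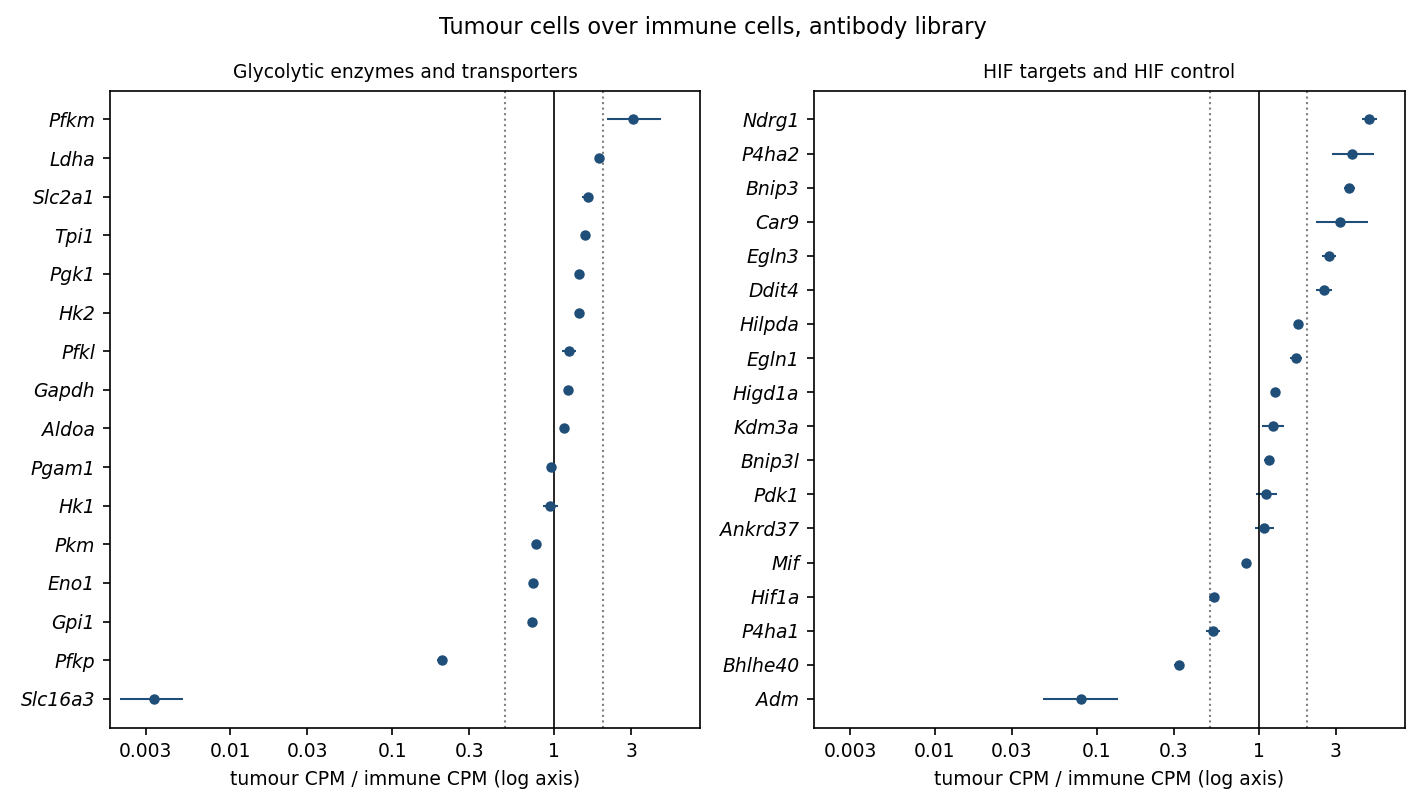
Ratio of tumour CPM to immune CPM on a log axis, 1 row per gene, with glycolytic genes on the left and HIF targets on the right, lines for 95% counting intervals, a solid line at 1 and dotted lines at the 2-fold limits. Slc16a3 lies far to the low side at 0.00336, and Ndrg1 is highest at 4.84.

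Among the transporters, the glucose importer Slc2a1 had 121 CPM in tumour cells and 75.4 CPM in immune cells, a ratio of 1.61 (1.48 to 1.75). The Slc2a1 level ranged widely in both classes, with 23.9, 47.2 and 403 CPM as the lowest, median and highest tumour cluster and 22, 68.0 and 472 CPM among immune clusters. The classes overlapped over nearly all of that range, and with clusters weighted alike the ratio was 0.975. Slc16a3, which exports lactate, was far lower in tumour cells. Tumour cells held 22 UMIs of it and immune cells 884. That is 0.352 CPM in tumour cells and 105 CPM in immune cells, a ratio of 0.00336 (0.00210 to 0.00512). No tumour cluster passed 0.725 CPM, whereas the immune clusters had a median of 90.3 CPM and reached 529.5 CPM in MDSC_2. B cells, with 18 cells, were the immune cluster at 0. The other lactate carrier Slc16a1, not among the 35, ran the other way, at 47.4 CPM in tumour cells and 12.4 CPM in immune cells (ratio 3.81, 3.13 to 4.67). After each cell was thinned to 1000 UMIs, 0.0357% of tumour cells and 11.7% of immune cells were expected to show a Slc16a3 UMI, and without thinning the shares were 0.685% of tumour cells and 26.2% of immune cells. This left out 38 of 3213 tumour cells and 384 of 2022 immune cells that were shallower.

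Phosphofructokinase, which commits sugar to glycolysis, has 3 genes. The platelet form Pfkp had 29.3 CPM in tumour cells and 145 CPM in immune cells, a ratio of 0.202 (0.188 to 0.218). Tumour clusters gave 10.8, 17.3 and 61.3 CPM as lowest, median and highest, against 66.0, 138 and 409 CPM in immune clusters, so the classes did not overlap. The muscle form Pfkm was scarce in both, with 683 UMIs in tumour cells and 30 in immune cells. Its ratio was 3.07 (2.13 to 4.59), at 10.9 CPM in tumour cells and 3.55 CPM in immune cells. Pfkm tumour clusters ran from 6.18 to 14.2 CPM (median 10.5) and immune clusters from 0 to 18.5 CPM (median 3.52), so they overlapped. The liver form Pfkl differed less, with a ratio of 1.23 (1.12 to 1.36). As shares of all phosphofructokinase UMIs, Pfkl made up 62.5% (61.3 to 63.7) in tumour cells, where Pfkp made up 27.3% (26.3 to 28.4). In immune cells the order was turned round, with Pfkl at 26.9% and Pfkp at 71.4% (69.2 to 73.5). The shares rest on 6711 UMIs in tumour cells and 1713 UMIs in immune cells, and such tags from the 3′ end need not capture each gene equally well.

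Hexokinase, the first enzyme of the pathway, was mostly Hk2 in both classes. Counting Hk1, Hk2 and the myeloid Hk3, which is not among the 35, Hk2 made up 85.5% (85.0 to 86.0) of UMIs in tumour cells and 66.5% (64.5 to 68.4) in immune cells. Hk3 took 0.0697% in tumour cells and 16.6% in immune cells. The ratio of Hk2 was 1.42 (1.35 to 1.5), at 255 CPM in tumour cells and 179 CPM in immune cells. Hk1 did not differ beyond its counting error, with a ratio of 0.947 (0.851 to 1.06). From glucose phosphate to pyruvate no enzyme passed the 2-fold limit other than the phosphofructokinases. Ratios of tumour over immune CPM were 0.728 for Gpi1, 1.15 for Aldoa, 1.56 for Tpi1, 1.22 for Gapdh, 1.44 for Pgk1, 0.961 for Pgam1, 0.738 for Eno1 and 0.773 for Pkm. Ldha, which reduces pyruvate to lactate, was closest to the limit at 1.89 (1.84 to 1.94), with 1416 CPM in tumour cells and 749 CPM in immune cells. Its tumour clusters ran from 1016 to 1950 CPM (median 1351) and its immune clusters from 165 to 1039 CPM (median 674), so they met only at the edge. The limit was crossed with clusters weighted alike (2.14). The partner subunit Ldhb, not among the 35, had 0 UMIs in tumour cells and 70 in immune cells. Taking 3 counts as the most that a count of 0 allows, it was at least 173-fold lower in tumour cells.

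Among 18 HIF genes with enough UMIs, 6 were at least 2-fold higher in tumour cells, against 20.2% of all genes. Ndrg1, a stress-induced gene, had the highest ratio at 4.84 (4.36 to 5.39), with 208 CPM in tumour cells and 43.0 CPM in immune cells. Across tumour clusters it had 19.03, 44.1 and 854 CPM as lowest, median and highest, against 0, 39.9 and 83.1 CPM across immune clusters, and the medians were close. P4ha2, a subunit of the collagen prolyl hydroxylase, had a ratio of 3.79 (2.85 to 5.15), at 22.01 CPM in tumour cells and 5.81 CPM in immune cells. Its clusters gave 7.07, 11.5 and 61.9 CPM as lowest, median and highest in tumour and 0, 5.10 and 21.9 CPM in immune clusters. Bnip3, a receptor that directs mitochondria to autophagy, had 283 CPM in tumour cells and 77.8 CPM in immune cells, a ratio of 3.64 (3.36 to 3.94). Its cluster medians were 91.8 CPM in tumour and 84.0 CPM in immune clusters, with tops of 968 CPM in tumour and 409 CPM in immune clusters. For both Ndrg1 and Bnip3 the tumour clusters were unequal, and Tumor_1 was highest.

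The carbonic anhydrase Car9, which acidifies the outside of hypoxic cells, had 12.1 CPM in tumour cells and 3.79 CPM in immune cells (ratio 3.20, 2.25 to 4.72). Its clusters ran from 4.79 to 24.1 CPM in tumour (median 9.34) and from 0 to 9.73 CPM in immune clusters, where the median was 0. Egln3, a prolyl hydroxylase that HIF induces and that acts back on it, had a ratio of 2.74 (2.48 to 3.02), with 136 CPM in tumour cells and 49.8 CPM in immune cells. Its tumour clusters had 50.4, 74.6 and 277 CPM as lowest, median and highest, and its immune clusters 0, 23.7 and 692.5 CPM, the last in MDSC_4. The ratio depended on the MDSC clusters. Without them the Egln3 ratio was 7.03, and with clusters weighted alike it was 1.21. Ddit4, an inhibitor of mTOR signalling, had a ratio of 2.54 (2.27 to 2.86). The Ddit4 level was 93.04 CPM in tumour cells and 36.6 CPM in immune cells, and with clusters weighted alike its ratio was 1.74, under the limit.

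Of the same 18 HIF genes, 2 were at least 2-fold lower in tumour cells, against 25.1% of all genes. Adm, a vasodilator peptide, had 25 UMIs in tumour cells and 42 in immune cells, a ratio of 0.0804 (0.0469 to 0.135). Its highest immune cluster was Macrophage_4 at 37.8 CPM, on 5 UMIs, while Macrophage_1 held 29 of the 42 immune UMIs at 20.4 CPM. No tumour cluster passed 1.46 CPM. Bhlhe40, a transcriptional repressor active in T cells and myeloid cells, had 50.7 CPM in tumour cells and 157 CPM in immune cells, a ratio of 0.323 (0.303 to 0.344). Its tumour clusters had 9.72, 29.3 and 144 CPM as lowest, median and highest, against 11, 149.9 and 416 CPM in immune clusters, so only the ranges overlapped and the medians stood apart. Plod2, which hydroxylates lysine in collagen, was too scarce to count, with 2 UMIs in tumour cells and 44 in immune cells. Hif1a itself, the oxygen-controlled subunit, had 70.5 CPM in tumour cells and 133 CPM in immune cells, a ratio of 0.531 (0.497 to 0.567), inside the 2-fold limit as summed and past it with clusters weighted alike (0.487). Its tumour clusters ran from 44.8 to 97.6 CPM and its immune clusters from 44.0 to 309 CPM, highest in CD4_T.

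The other 9 HIF-linked genes were within 2-fold as summed. P4ha1 encodes a catalytic subunit of collagen prolyl hydroxylase, an alternative to that of P4ha2. P4ha1 had 27.99 CPM in tumour cells and 53.4 CPM in immune cells (0.524, 0.472 to 0.582). Its clusters ran from 2.65 to 65.8 CPM in tumour (median 19.3) and from 0 to 302 CPM in immune cells (median 42.9). It was past the limit with clusters weighted alike (0.413) and as a mean over cells (0.438). The other ratios were 0.838 for the cytokine Mif, 1.09 for Ankrd37, 1.12 for Pdk1, 1.15 for the mitophagy receptor Bnip3l, 1.23 for the histone demethylase Kdm3a, 1.27 for Higd1a, 1.70 for Egln1 and 1.76 for Hilpda. Pdk1 blocks the entry of pyruvate into mitochondria, Egln1 is the main oxygen sensor of the HIF system, and Hilpda holds fat in lipid droplets. With clusters weighted alike Hilpda was 0.907, Ankrd37 0.587, Kdm3a 0.750 and Bnip3l 0.9765. No direction is given for Hilpda, Ankrd37, Kdm3a or Bnip3l.

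Several cell-quality measures moved with this comparison. The 9 hepatoma markers were each at least 2-fold higher in tumour cells, and the median over the markers of the immune level was 8.69% of the tumour level. Among 14 stress and dissociation genes 7 were lower and none was higher in tumour cells. The part of these measures in the ratios was not tested, except that subtracting 8.69% of the tumour level from immune cells left 8 genes higher and 4 lower, with Ndrg1 at 7.64. In the wider pathway, HIF system genes that were not among the 35 gave 3 higher and 0 lower of 11, with the HIF subunit Epas1 at a ratio of 5.41 and Cited2, which competes with HIF for its coactivator, at 3.75. Other HIF targets gave 7 higher and 7 lower of 21. Vegfa, the vascular growth factor, was higher in tumour cells at 4.32, while the glucose importer Slc2a3 was lower at 0.0291. All 7 pentose phosphate genes had ratios below 1, and 3 of them (Pgd, Rpia and Tkt) passed the limit, with a median of 0.551. Beside the counts of this paragraph, 6654 of all 12470 genes had ratios below 1. Of all genes, 20.2% were at least 2-fold higher and 25.1% at least 2-fold lower in tumour cells.

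The second comparison concerned differences among tumour clusters. Summed over each gene group, the level was highest in the cluster named Tumor_1 (460 cells). Its 16 glycolytic genes added up to 16400.5 CPM, against 6180.5 to 12666.2 CPM (median 6976.3) in the 10 other tumour clusters. Its 19 HIF genes added up to 5831 CPM, against 1425.7 to 3427 CPM (median 1615.2). Tumor_10, with 157 cells, came second on both sums, at 12666.2 and 3427 CPM. Tumor_6 and Tumor_5 followed on both, and the other 7 tumour clusters lay close together near the bottom. Without Mif the HIF sum was 4792.8 CPM in Tumor_1 and at most 2602.6 CPM elsewhere. Clusters were made from the same transcripts, and Tumor_1 was picked with earlier results known, so its ratios describe the cluster and test nothing.

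**Figure D2:**
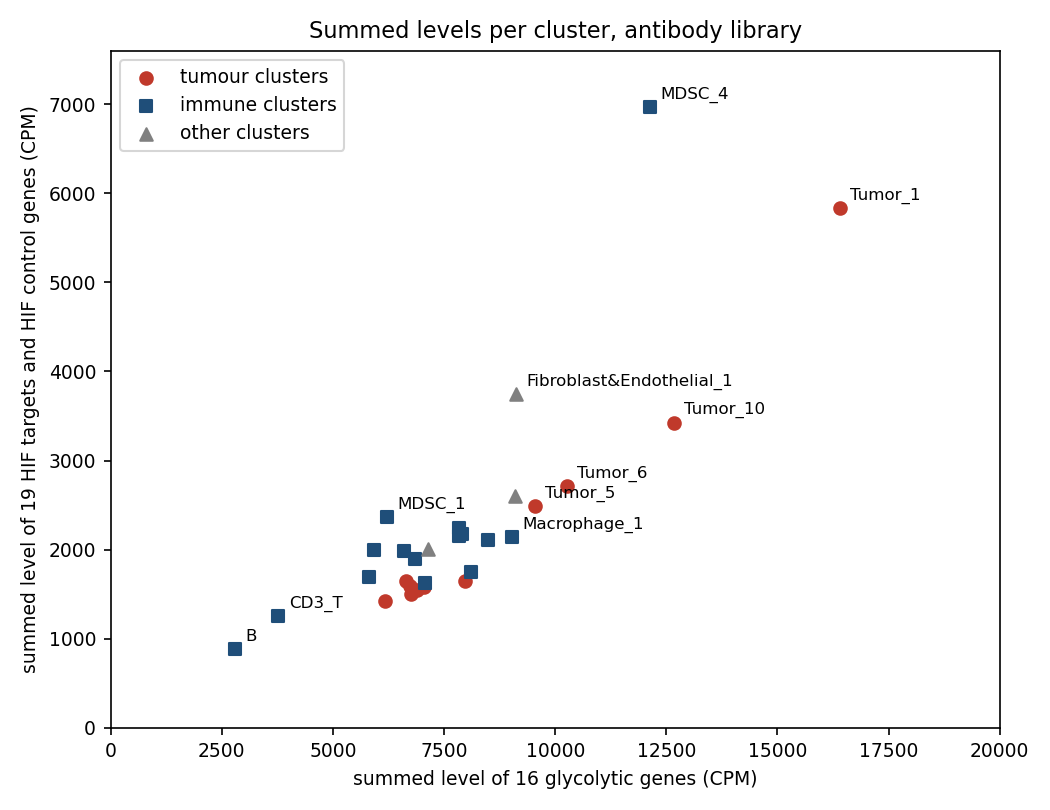
Summed CPM of the 19 HIF genes (vertical) against summed CPM of the 16 glycolytic genes (horizontal), 1 point per cluster other than Adipocyte, with tumour, immune and other clusters as circles, squares and triangles. Tumor_1 (16400.5 CPM glycolytic, 5831 CPM HIF) and MDSC_4 (12137.7 CPM glycolytic, 6969.1 CPM HIF) lie apart from the rest, and the B cell cluster is lowest.

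Of 32 genes with at least 50 tumour UMIs, 26 were at least 1.5-fold higher in Tumor_1 than in the other tumour cells, where 9.14% of all 11367 genes were. None was at least 1.5-fold lower, against 37.4% of all genes. Their median ratio was 2.40, against 0.791 over all genes, a shift of -0.34 on the log2 scale that makes these ratios larger still relative to other genes. By group, 15 of 17 HIF genes and 11 of 15 glycolytic genes passed, with medians of 3.05 and 2.18. Slc16a3, Adm and Plod2 fell below the 50 UMI limit. The highest of the 11 tumour clusters was Tumor_1 for 27 of the 32 genes and Tumor_10 for the other 5. The same was not counted over all genes.

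**Figure D3:**
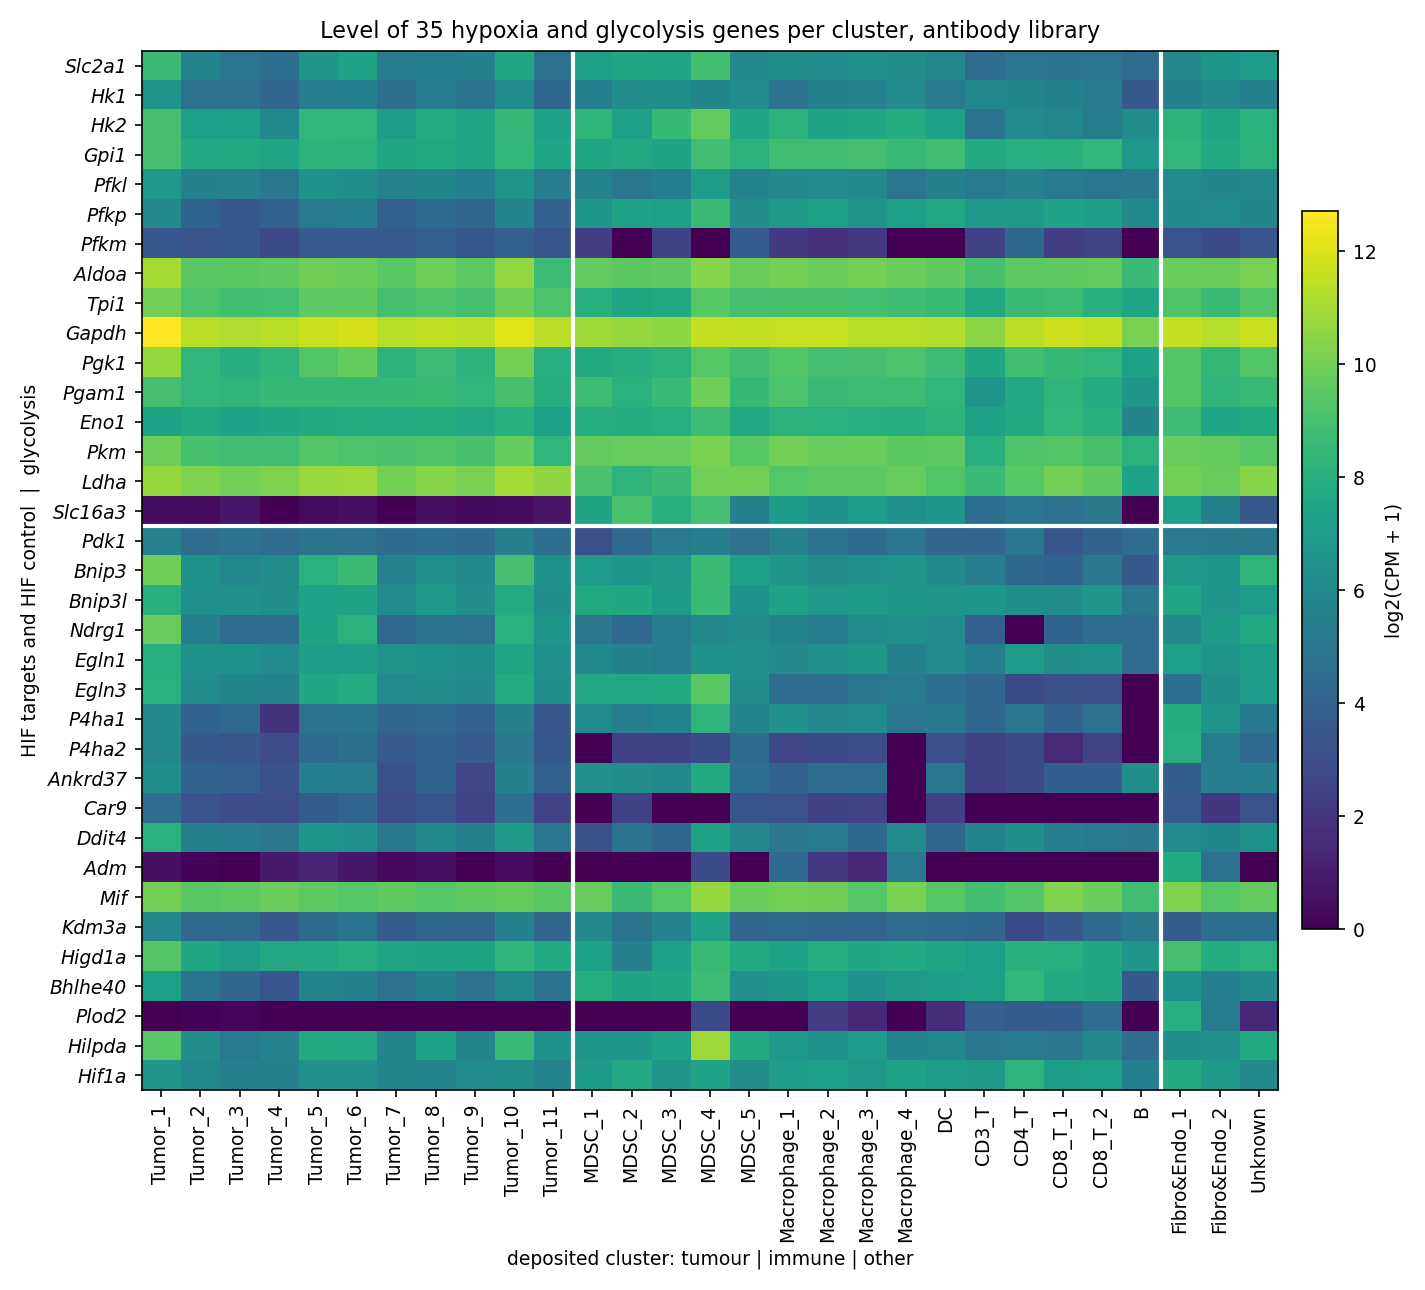
Level of each of the 35 genes (rows) in 29 clusters (columns) as log2(CPM + 1), on 1 colour scale for all genes, with white lines between glycolytic and HIF genes and between tumour, immune and other clusters. Colours are to be compared along a row. Tumor_1, Tumor_10 and MDSC_4 are brighter than their neighbours over many rows, while Slc16a3 is dark in every tumour cluster, at most 0.725 CPM.

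Ndrg1 had 854 CPM in Tumor_1 and 98.0 CPM in the other tumour cells, a ratio of 8.71 (8.41 to 9.02). The other 10 clusters ran from 19.03 to 291 CPM with a median of 36.3, Tumor_6 being the next. Bnip3 had 968 CPM in Tumor_1 and 166 CPM in the others (5.83, 5.66 to 6.01), where the 10 clusters ran from 48.7 to 491 CPM with a median of 87.8. Slc2a1 had 403 CPM in Tumor_1 and 73.2 CPM in the others (5.50, 5.26 to 5.76), where the clusters ran from 23.9 to 195 CPM with a median of 45.1. This was the highest ratio among the glycolytic genes. Hilpda had 684 CPM in Tumor_1 and 127 CPM in the others (5.38, 5.20 to 5.57), with the other clusters at 36.5 to 384 CPM and a median of 82.3. Ddit4 followed at 276 CPM in Tumor_1 and 61.8 CPM in the others (4.47, 4.24 to 4.70), and Bhlhe40 at 144 CPM in Tumor_1 and 34.7 CPM in the others (4.15, 3.87 to 4.46). For each of these 6 genes Tumor_1 lay above every other tumour cluster.

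Along the pathway the ratio of Tumor_1 over the other tumour cells varied by step. It was 2.82 for Hk1 and 2.33 for Hk2, 2.18 for Gpi1, 1.85 for Pfkl and 2.57 for Pfkp. It was 2.43 for Aldoa, 1.69 for Tpi1, 2.26 for Gapdh (6698 CPM in Tumor_1 and 2968 CPM in the others) and 3.60 for Pgk1. For the later steps it was 1.39 (1.35 to 1.44) for Pgam1, 0.761 (0.720 to 0.803) for Eno1, 1.76 for Pkm and 1.21 (1.19 to 1.23) for Ldha, so that only Pkm of these 4 passed the limit. Eno1 had 161 CPM in Tumor_1 and 212 CPM in the others, the lowest ratio of all 32 genes. Eno1b, a near copy, held 657 UMIs that may in part belong to Eno1, and its part was not tested. Ldha was highest not in Tumor_1 (1661 CPM) but in Tumor_10 (1950 CPM). Pfkm did not differ between Tumor_1 and the rest beyond its counting error, at 0.946 (0.753 to 1.18).

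Other HIF genes past the limit had ratios of 4.08 for P4ha2, 3.58 for Ankrd37, 3.31 for Higd1a, 3.05 for P4ha1, 2.69 for Kdm3a, 2.47 for Egln3, 2.36 for Bnip3l, 2.31 for Egln1, 2.14 for Car9 and 1.85 for Pdk1. Hif1a had 97.6 CPM in Tumor_1 and 65.9 CPM in the others (1.48, 1.38 to 1.60), just under the limit, as was Mif at 1.42 (1.39 to 1.45). Only Mif had a lower ratio among the 17 HIF genes. With the median ratio of all genes set to 1, Hif1a (1.87), Mif (1.80), Pgam1 (1.76) and Ldha (1.53) also passed. Outside the 35, the targets Vegfa and Ero1l were also higher, Vegfa at 424 CPM in Tumor_1 and 89.2 CPM in the others and Ero1l, an oxidase of protein folding, at a ratio of 4.01. In all, 16 of 19 other HIF targets were higher and 1 lower, Ppp1r3c at 0.387. Of 11 HIF system genes 3 were higher, Cited2 at 2.88, Vhl, which recognises hydroxylated HIF, at 1.94, and Arnt, the constant HIF subunit, at 1.504, and 2 were lower, Egln2 at 0.577 and Elob at 0.656. Other glycolysis genes gave 0 higher and 4 lower of 10, with the enolase Eno3 at 0.272. Genes of pyruvate entry to mitochondria gave 1 higher and 3 lower of 11, with the pyruvate carrier subunit Mpc2 at 0.287. Both counts of lower genes stand beside 37.4% of all genes at least 1.5-fold lower, and neither sets its list apart.

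Within clusters, cells spread widely. HIF genes took a median of 56.9 UMIs per 10000 in Tumor_1 cells (10th to 90th percentile 33.2 to 85.3), 32.1 in Tumor_10 (18.4 to 54.2), and 13.8 to 22.3 in the other tumour clusters. The upper end of Tumor_10 thus overlapped the middle of Tumor_1. After thinning to 1000 UMIs, 58.5% (53.9 to 63.1) of Tumor_1 cells and 12.7% (11.5 to 14.0) of other tumour cells were expected to show Bnip3, and without thinning 98.5% of Tumor_1 cells and 62.0% of the others did. For Ndrg1 the thinned shares were 51.7% in Tumor_1 and 7.31% in the others, and for Hilpda 43.9% in Tumor_1 and 9.80% in the others. Thinning left out 2 of 460 Tumor_1 cells and 36 of 2753 other tumour cells. Across the 11 tumour clusters the HIF sum had a Spearman correlation of 0.855 with the glycolytic sum, given as a description over clusters of 1 library. Single genes ranged from 0.0455 for Mif to 0.946 for Bnip3, where each HIF gene was left out of the sum it was compared with.

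Other measures moved with Tumor_1. Its 12 cell cycle genes added up to 130 CPM, the lowest of the 11 tumour clusters, against 181.8 to 2476.2 CPM in the others, and all 12 were at least 1.5-fold lower. The 9 hepatoma markers added up to 13160 CPM in Tumor_1, against 11020.5 to 35394.2 CPM, and all 9 were present. Of the 9, 5 were at least 1.5-fold lower in Tumor_1 (Afp, Apoa1, Apoa2, Ttr and Trf) and Krt18 was higher, with a median ratio of 0.503. Ttr had 70.05 CPM in Tumor_1, against 83.1 to 2564.5 CPM in the other tumour clusters. Its stress genes (3903.6 CPM, against 3182.9 to 6410.2 CPM), mitochondrial share (4.67%, against 1.72% to 6.30%) and median depth (18449 UMIs, against 2483 to 24288) lay within the range of the others. Pan-immune markers were near 0 in all 11, at 6.47 to 16.8 CPM. The part of the cell cycle and of the hepatoma markers in the ratios was not tested.

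The third comparison concerned myeloid cells, where 1 cluster had the highest level of many of these genes. MDSC_4, with 128 cells and 158844 UMIs, is 1 of the clusters named for myeloid-derived suppressor cells, and the neutrophil markers were all 5 present in it at 42923 CPM, against 22642.4 to 140538.2 CPM in MDSC_1, MDSC_2 and MDSC_3. Most of that sum is S100a8 and S100a9. The neutrophil receptors were below all 3 neighbours, Csf3r at 1032.5 CPM in MDSC_4, against 1518.9 to 1779.2 CPM, and Cxcr2 at 484.8 CPM in MDSC_4, against 807.1 to 1373.8 CPM. Its glycolytic genes added up to 12137.7 CPM and its HIF genes to 6969.1 CPM, the highest HIF sum of the 15 immune clusters. MDSC_1 to MDSC_3 had 5814.6 to 6216.7 CPM of glycolytic and 1688.6 to 2362.3 CPM of HIF genes. Of 29 clusters, leaving out the 2 cells named Adipocyte, MDSC_4 had the highest level of 15 of the 35 genes and Tumor_1 of 11. How many of all genes were highest in these clusters was not counted, so these numbers have no background beside them. Here too the cluster was chosen with earlier results known and made from the same transcripts.

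Among 26 genes with at least 50 UMIs in the 4 clusters, 19 were at least 2-fold higher in MDSC_4 than in MDSC_1 to MDSC_3, against 6.61% of all 2119 genes. None was 2-fold lower, against 14.3% of all genes. Their median ratio was 2.68, against 0.877 over all genes. HIF genes passed in 10 of 11 cases and glycolytic genes in 9 of 15. Bhlhe40 passed at 2.03 and not among cells with at least 1000 UMIs (1.59).

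**Figure D4:**
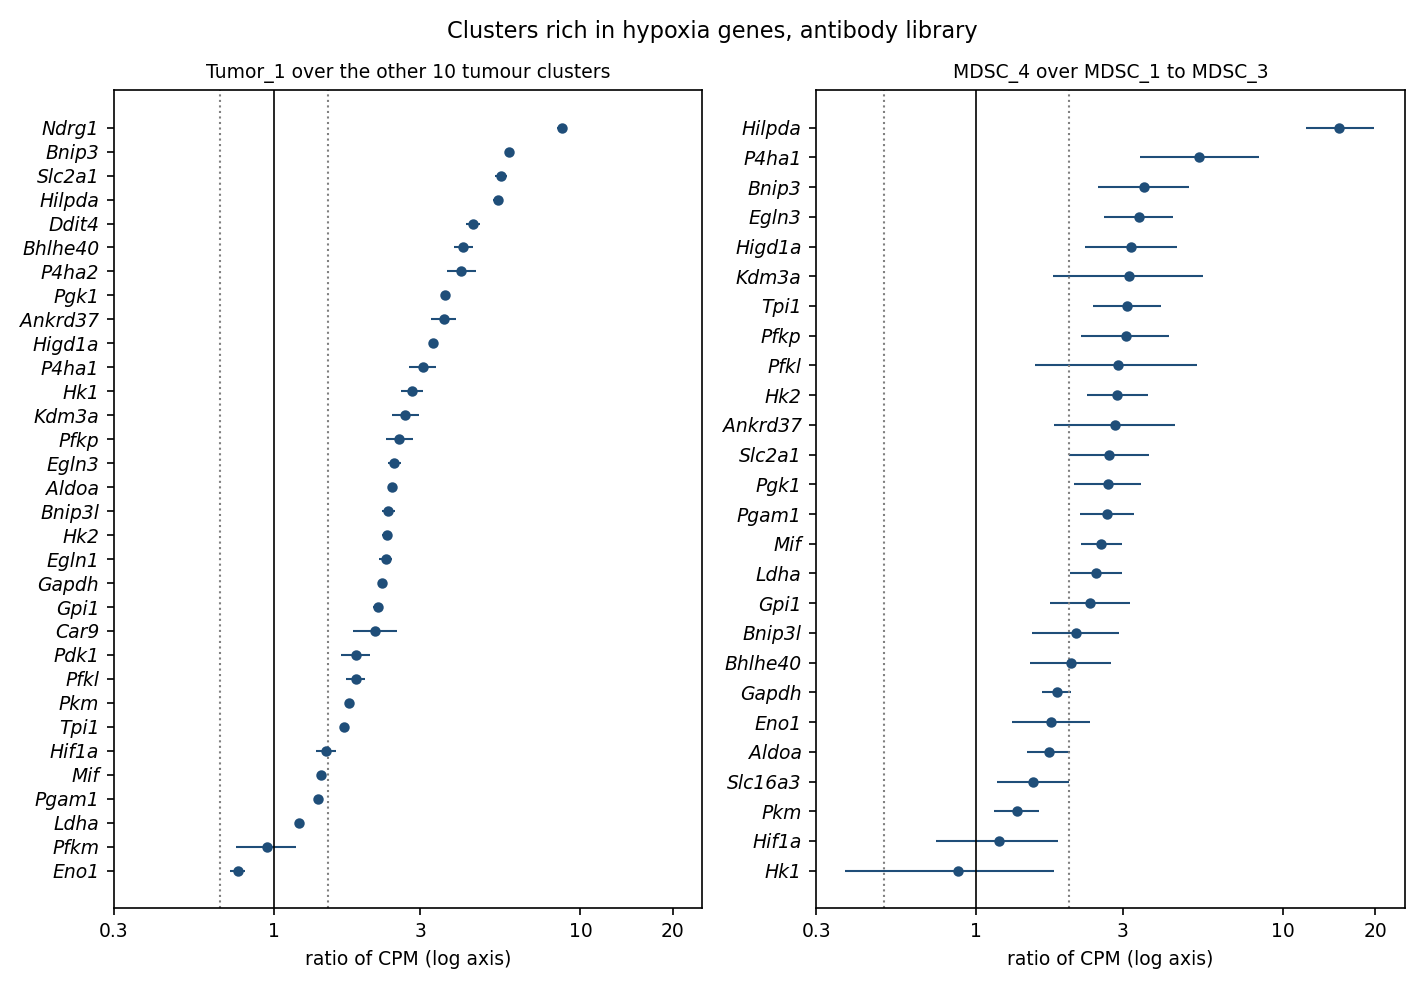
Ratio of CPM on a log axis, 1 row per gene with enough UMIs, for Tumor_1 over the other tumour clusters (left, dotted lines at 1.5-fold) and MDSC_4 over MDSC_1 to MDSC_3 (right, dotted lines at 2-fold), with lines for 95% counting intervals. Ndrg1 is highest on the left (8.71) and Hilpda on the right (15.3), and Eno1 (left, 0.761) and Hk1 (right, 0.868) are lowest.

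Hilpda led by far, with 289 UMIs in MDSC_4 and 82 in MDSC_1 to MDSC_3. The level was 1819 CPM in MDSC_4 and 102, 100.2 and 155 CPM in MDSC_1, MDSC_2 and MDSC_3, a ratio of 15.3 (11.9 to 19.8). The MDSC_4 level was the highest of any cluster. Thinned to 1000 UMIs, 55.6% (43.4 to 66.7) of MDSC_4 cells and 7.99% (5.23 to 11.4) of MDSC_1 to MDSC_3 cells were expected to show Hilpda, with 52 of 128 MDSC_4 cells and 250 of 579 MDSC_1 to MDSC_3 cells left out as shallower. Without thinning the shares were 56.3% in MDSC_4 and 7.60% in MDSC_1 to MDSC_3. No cell class is known to lack Hilpda or Bnip3, so no background share stands beside them. P4ha1 had 302 CPM in MDSC_4 and 70.9, 42.9 and 53.1 CPM in the same 3 clusters (5.34, 3.43 to 8.37). In both genes MDSC_4 stood above all 3, and the interval of the ratio lay above 1. Bnip3 had 409 CPM in MDSC_4 and 129.9, 100.2 and 115.1 CPM in the 3 (3.53, 2.502 to 4.95). Egln3 had 692.5 CPM in MDSC_4 and 200.8, 200.3 and 212.6 CPM in the 3 (3.39, 2.62 to 4.38).

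In glycolysis the ratios of MDSC_4 over the other 3 were 3.10 for Tpi1, 3.07 (2.20 to 4.26) for Pfkp, 2.89 for Pfkl, 2.89 (2.29 to 3.63) for Hk2, 2.71 (2.01 to 3.65) for Slc2a1, 2.68 for Pgk1, 2.67 for Pgam1, 2.46 for Ldha and 2.35 for Gpi1. Hk2 had 812 CPM in MDSC_4 and 315, 152.6 and 363.1 CPM in the other 3. Slc2a1 had 472 CPM in MDSC_4 and 153.5, 190.8 and 181.6 CPM in the other 3, so MDSC_4 was above each of them for both genes. Under the limit were Hk1 at 0.868 (0.373 to 1.80), Pkm at 1.36 (1.14 to 1.61) and Hif1a at 1.19 (0.739 to 1.85). Slc16a3 was at 1.53 (1.17 to 2.00), with 478.5 CPM in MDSC_4 and 173.2, 529.5 and 265.7 CPM in the other 3, so MDSC_2 was above MDSC_4. Unlike in Tumor_1, Pgam1 and Ldha were among the genes past the limit, and no test of that difference was run. Gapdh (1.83), Eno1 (1.76) and Aldoa (1.73) stayed under 2-fold.

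The remaining HIF genes past the limit were Higd1a (3.20), Kdm3a (3.16), Ankrd37 (2.84), Mif (2.55), Bnip3l (2.12) and Bhlhe40 (2.03). Outside the 35, Ero1l at 8.15, Fam162a at 4.42 and Vegfa at 3.64 were higher and the glycolysis regulator Pfkfb4 was lower at 0.350, among 7 other HIF targets with enough UMIs. Hepatoma markers in MDSC_4 (1656 CPM) were close to those in MDSC_1 to MDSC_3 (1674.3 to 1806.8 CPM), and all 7 T cell markers were at 0. Pan-immune markers were lower, at 6566.1 CPM in MDSC_4 and 9188.9 to 10110.6 CPM in the other 3. The 14 stress genes added up to 18584 CPM in MDSC_4 and 17200.6 to 19004.5 CPM in the others. The heat shock genes among them did not move together. Hsp90aa1 had 1366.1 CPM in MDSC_4, against 291.0 to 484.3 CPM, a ratio of 3.49 (2.90 to 4.19). Hspa1a, with 25 UMIs in MDSC_4 and 11 in the others and so under the UMI minimum, had 157.4 CPM in MDSC_4, against 7.87 to 23.9 CPM. Hspa1b, also under it with 16 and 6 UMIs, had 100.7 CPM in MDSC_4, against 0 to 19.08 CPM. Within the range of the others were Hspa8 (440.7 CPM in MDSC_4, against 353.0 to 519.7 CPM) and Dnajb1 (62.95 CPM, against 55.12 to 79.71 CPM). Median depth was 1049.5 UMIs in MDSC_4 and 1046 over the other 3. The part of the immune markers and heat shock genes in the ratios was not tested. With tumour RNA subtracted, 20 genes were 2-fold higher.

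**Figure D5:**
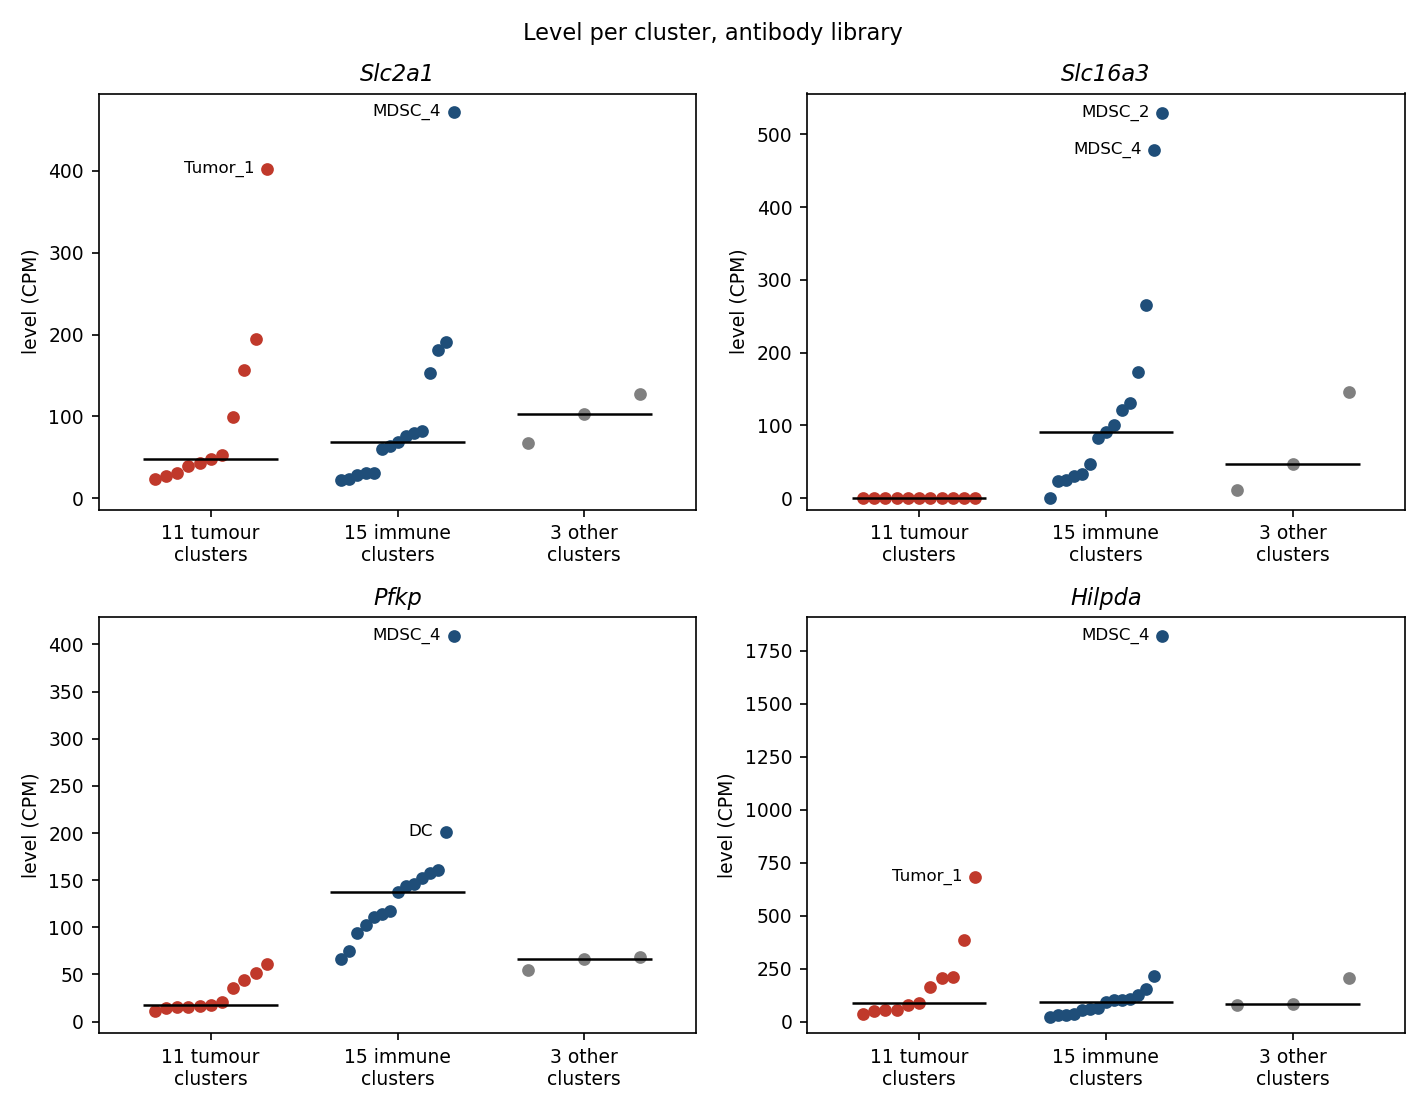
CPM of Slc2a1, Slc16a3, Pfkp and Hilpda, 1 point per cluster in order of level within the 11 tumour, 15 immune and 3 other clusters, with a black line at the median cluster. Tumor_1 and MDSC_4 are the top clusters of their class for Slc2a1, Pfkp and Hilpda, with Hilpda at 1819 CPM in MDSC_4, and all tumour points of Slc16a3 lie near 0.

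Among immune cells the classes divided unevenly. The classes share their comparison cells, so each set of values is given on its own. MDSC_1 to MDSC_4, against the other immune cells, had 9 of 30 genes at least 2-fold higher, against 11.3% of all 9278 genes, and none lower, against 43.9%. Their median ratio was 1.17, against 0.583 over all genes (-0.78 on the log2 scale). The largest were 13.3 (10.9 to 16.3) for Egln3, at 296 CPM in MDSC and 22.3 CPM in the other immune cells, 5.30 for Hilpda and 5.20 for Ankrd37. Slc16a3 had 343 CPM in MDSC and 78.1 CPM in the others (4.39, 3.80 to 5.06), and Slc2a1 had 230 CPM in MDSC and 58.1 CPM in the others (3.96). Much of this rested on MDSC_4. Without it 5 genes were at least 2-fold higher (Slc2a1, Slc16a3, Egln3, Ankrd37 and Kdm3a) and 3 lower (Gpi1, Tpi1 and Ddit4). Hilpda then had 119 CPM in MDSC_1 to MDSC_3 and 82.6 CPM in the other immune cells (1.44, 1.13 to 1.82), while Egln3 was at 9.19 and Slc16a3 at 3.99. Hk2 (1.79), Bnip3 (1.72) and P4ha1 (1.18) no longer passed. In MDSC_1 to MDSC_4 together 7 of 14 stress genes were at least 2-fold higher and all 12 cell cycle genes lower, and their part in these ratios was not tested.

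T cells formed 4 clusters. Of 30 genes 10 were at least 2-fold lower than in the other immune cells, against 22.0% of all genes, and none was 2-fold higher, against 12.7%. The median ratio of the 30 was 0.657, against 1.04 over all genes. Egln3 had 8.84 CPM in T cells and 64.7 CPM in the others (0.137, 0.0825 to 0.214). Hk2 had 54.8 CPM in T cells and 225 CPM in the others (0.244, 0.201 to 0.293), and Slc16a3 had 27.0 CPM in T cells and 133 CPM in the others (0.203, 0.154 to 0.263). Slc2a1 was at 28.7 CPM in T cells and 92.4 CPM in the others (0.311, 0.237 to 0.402). Ldha (1.31) and Bhlhe40 (1.61) ran the other way without passing 2-fold. With clusters weighted alike Pdk1 in T cells was 0.678, against 0.431 as summed, and no longer lower by the limit. In T cells 11 of 12 cell cycle genes were higher. The cell cycle sum was 3496.6 CPM in CD8_T_1, which held 1494582 of the 2261833 T cell UMIs. That sum was 370.2 to 862.3 CPM in the other T cell clusters. The natural killer cell markers (Ncr1, Klrb1c, Klre1, Gzma and Eomes) were all highest in CD3_T of all clusters, with Gzma at 3715.6 CPM. Hepatoma markers stood at 866.1 CPM in T cells, against 1900.4 CPM in the other immune cells. The part of these measures in the ratios was not tested. Of Hk1, Hk2 and Hk3 UMIs, Hk2 made up 51.7% (45.2 to 58.1) in T cells and 68.2% (66.2 to 70.3) in the other immune cells, and Hk1 44.6% in T cells and 13.6% in the others.

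Macrophages had 1 gene at least 2-fold higher, against 9.46% of all genes, and 1 lower, against 7.89%. Pdk1 was the higher one, at 35.9 CPM in macrophages and 17.6 CPM in the others (2.04, 1.54 to 2.72), and Egln3 the lower one at 0.350 (0.276 to 0.440). The cluster named DC had no gene 2-fold higher, against 2.96% of all genes, and 3 lower, against 14.4%: Egln3 at 0.448, Ddit4 at 0.442 and Hilpda at 0.482. Within 2-fold stayed 28 of 30 genes in macrophages and 27 of 30 in DC. The Pdk1 ratio in macrophages was 1.47 with clusters weighted alike, and in DC cells with at least 1000 UMIs Egln3 was at 0.517 and Hilpda at 0.505, so these calls did not hold. Macrophage_2, with 1750175 of the 3900476 macrophage UMIs, carried T cell markers at 909.1 CPM, against 85.8 to 381.2 CPM in the other macrophage clusters. Its cell cycle genes added up to 2258.1 CPM, against 430.9 to 982.3 CPM. Their part in the macrophage ratios was not tested. DC is a deposited name. Of the monocyte markers, Plac8 (1752 CPM), Ccr2 (378.5 CPM) and Chil3 (314.9 CPM) were highest there of all clusters. Ly6c2 (276 CPM) was higher in B cells (1045 CPM). Of the dendritic cell markers, Cd209a (52.8 CPM) and Flt3 (10.8 CPM, on 10 UMIs) were highest there. Zbtb46 (14.02 CPM) was level with CD3_T (14.06 CPM), and Xcr1, Clec9a, Ccr7 and Fscn1 were higher in other clusters.

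Cells named fibroblast and endothelial (150 cells, 2 clusters) were set against tumour cells. Of 35 genes 7 were at least 2-fold higher in them, against 20.8% of all 11795 genes, and 4 lower, against 18.1%, both near or below the background. P4ha1 had 203 CPM in these cells and 27.99 CPM in tumour cells (7.26). P4ha2 had 206 CPM in these cells and 22.01 CPM in tumour cells (9.36). They encode alternative catalytic subunits of collagen prolyl hydroxylase, which stabilises collagen. Plod2 had 303 UMIs in them and 2 in tumour cells, or 209.5 CPM in them and 0.0320 CPM in tumour cells, a ratio of 6549 with a counting interval from 1797.5 to 54326.4. Adm was at 173 CPM, against 0.400 CPM in tumour cells (432, 286 to 681). Slc16a3 was at 124 CPM, against 0.352 CPM in tumour cells (352, 225 to 575). Pfkp at 2.29 and Hif1a at 2.78 were the other higher genes. Lower were Egln3 (0.269), Ndrg1 (0.372), Hilpda (0.385) and Bnip3 (0.398). The 2 clusters were unequal. In order, Fibroblast&Endothelial_1 and Fibroblast&Endothelial_2 had 233.1 and 99.2 CPM of P4ha1, 253.6 and 40.3 of P4ha2, and 258.1 and 40.3 of Plod2. Adm had 214.5 and 27.9 CPM, Slc16a3 145.9 and 46.5, and Hif1a 218.9 and 114.7. Pfkp (66.7 and 68.2 CPM), Hilpda (79.2 and 83.7 CPM) and Bnip3 (114.8 and 105.4 CPM) were close. Egln3 (24.0 and 80.6 CPM) and Ndrg1 (65.0 and 120.9 CPM) were higher in Fibroblast&Endothelial_2. Fibroblast&Endothelial_1 held fibroblast markers at 34542 CPM and endothelial markers at 2.67 CPM, with Cdh5 and Kdr at 0. Fibroblast&Endothelial_2 held fibroblast markers at 8384.5 CPM and endothelial markers at 799.9 CPM. Hepatoma markers stood at 7339.5 CPM in Fibroblast&Endothelial_2 and 752.9 CPM in Fibroblast&Endothelial_1, and their part in these ratios was not tested.

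A single listed gene could be set between treatments, Eloc, a subunit of the complex that marks HIF for destruction, and not among the 35. In tumour cells it had 211 CPM with the antibody and 210.5 CPM with IgG, a ratio of 1.00 (0.980 to 1.03), where the median of 74 shared genes was 1.05. In Tumor_1 it had 159.8 CPM with the antibody and 157.8 CPM with IgG (1.01, 0.948 to 1.08). In immune cells it had 148.9 CPM with the antibody and 164.2 CPM with IgG (0.907, 0.829 to 0.992). Libraries and mice cannot be told apart from treatment here, as there was 1 library per group.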

How the data were processed

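Single-cell RNA of Hep1-6 tumours was measured in 1 antibody and 1 IgG library. Per the submitters' processing notes, Cell Ranger 2.1.1 was used. Build, cell filters and clustering method: not given in the sources used here. The authors deposited cluster names and a natural log matrix, in which each value is ln(1 + 10000 × a gene's share of the UMIs of its cell). That form was tested on the values: UMI counts recovered from it were whole within 0.001 for 100% of values in the antibody library. The lowest depth was 553 UMIs. Members and gene lists were chosen with earlier results of these data known. The 35 genes were all named, with the extremes of the tumour over immune and the Tumor_1 ratios given in full.

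UMIs were summed per cluster and class, scaled to CPM, and compared as ratios with exact conditional 95% intervals. Shares had exact Clopper-Pearson intervals. Both cover counting error only. Genes needed 50 UMIs in the cells compared, and a difference was 2-fold (1.5-fold for Tumor_1). Thinned shares were expected values at 1000 UMIs. Only the ratios and their intervals were tested on simulated counts. Doublets were predicted with scrublet in scanpy 1.11.5, which called 3 of 5482 cells (0.0547%) and so had not worked, and doublets were not removed. For IgG cells depth was recovered from 105 genes in 5739 cells and not in 26. The same step in antibody cells gave the true depth in 5440, another in 8 and none in 34. Python 3.11.15, numpy 2.4.6, pandas 2.3.3, scipy 1.17.1 and matplotlib 3.10.9 were used.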

Additional observations from a re-analysis of the deposited data

How the results depend on the processing

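Alternatives were other minimum depths per cell, other scalings, clusters weighted alike, a mean over cells, leaving out clusters or predicted doublets, other UMI minimums and other folds. Subtracting tumour RNA, counting Hk3 with the other hexokinases, leaving MDSC_4 out of the MDSC and all alternatives for the MDSC_4 ratio were chosen after seeing the data. The number of genes at least 2-fold higher in tumour cells was 7 and ranged from 6 to 12 over 13 alternatives, with 12 at a limit of 1.5-fold. The number lower was 4 (4 to 6). For Tumor_1 it was 26 (22 to 30) and for MDSC_4 19 (16 to 23). No ratio past its limit changed sign. The tumour over immune ratio kept its side of 1 in 359 of 374 recomputed values, the Tumor_1 ratio in 254 of 256 and the MDSC_4 ratio in 182 of 182. In that order, 34, 32 and 26 of these values came from leaving out predicted doublets. That step removed 0 tumour cells, 0 cells of MDSC_1 to MDSC_4 and 1 immune cell. Those values could hardly move and say nothing about stability, and the same holds for that alternative in the gene counts. Egln3 moved most in the tumour over immune comparison, at 5.08 among cells with at least 2000 UMIs, 1.15 as a mean over cells and 7.03 without the MDSC clusters. As a mean over cells Car9 was 5.60 and Adm 0.185. With clusters weighted alike, macrophages were more than 2-fold lower in Hilpda (0.391) and Ankrd37 (0.279). The cause of these moves was not tested. No paired analysis was possible because each group had 1 library. Immune cells were shallow, so genes with few UMIs in MDSC_4, such as Car9 and Pfkm, could not be compared there.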

Other observations

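Other genes of sugar use also differed between tumour and immune cells. The hexokinase Hk3, found in myeloid cells, had 0.208 CPM in tumour cells and 44.9 CPM in immune cells (ratio 0.00463), and the pyruvate dehydrogenase kinase Pdk3 had a tumour over immune ratio of 0.00466. Pdk2, of the same kinase family, was the reverse at 6.08, while Pdk1 was at 1.12. The pyruvate carboxylase gene Pcx, which feeds the synthesis of glucose in liver, was 4.76.

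The cluster named Unknown (95 cells) had 9086.9 CPM of glycolytic and 2598.7 CPM of HIF genes and carried hepatoma markers at 15250 CPM. MDSC_5 (37 cells) had 7898.5 and 2181.3 CPM and carried hepatoma markers at 11113 CPM, above the immune median of 1447.6 CPM. A row named as a second copy of Aldoa held 0 UMIs, and Gapdhs, a near copy of Gapdh, held 3.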
